A study of Mus musculus with 80 samples.

Results

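The hypothalamus and the cerebellum of the same mice were compared across all genes measured by RNA-seq. All 31 libraries of these 2 regions that had a column of counts were used, which is 31 of 80 libraries in the series. They were 16 hypothalamus libraries (8 virgin and 8 primiparous females) and 15 cerebellum libraries (7 virgin and 8 primiparous females), since the cerebellum of 1 virgin animal had been left out by the authors. Each library was made from 1 region of 1 C57BL/6 female (C57BL/6J in the methods of the study), and the animal number in the label pairs the libraries, which gave 15 pairs. Virgin females were age-matched to the primiparous ones, which had been housed with a male from 8 weeks of age and had raised 1 litter, and the labels place the harvest at 3 weeks after weaning, whereas the methods of the study give a longer interval. Both states were used together, because the difference between regions was taken within each animal. The whole hypothalamus was taken, but only the left side of the cerebellum. Each region had its own sequencing pool, so that region and sequencing pool cannot be told apart.

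The hypothalamus is a collection of small nuclei in the ventral forebrain. Its neurons release peptides as hormones and transmitters, read hormones from the blood and control feeding, body temperature, water balance, sleep and reproduction. The cerebellum is a layered structure of the hindbrain used in motor control. Its cortex holds a very large number of small excitatory granule cells, whose parallel fibres contact the inhibitory Purkinje cells, the only output of that cortex, together with a few kinds of interneurons and the Bergmann glia that surround the Purkinje cells. In whole tissue a gene may be lower because fewer cells of a type are present or because each of them holds less RNA, and these cannot be told apart here.

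The labels were set beside markers of each region, from lists chosen with earlier results of these data known. All 22 granule cell markers and 27 of 28 Purkinje cell markers were higher in the cerebellum (40.4% of all genes tested). Of 30 hypothalamic transcription factors that could be tested, 29 were higher in the hypothalamus (39.9% of all genes tested). Factors read only in the hypothalamus could be tested because of its libraries, so these counts are a description. Counted reads per library were 7959192 to 23352639 in the hypothalamus and 8702483 to 29090360 in the cerebellum. The mean difference was −3270000 reads with an SD of 7790000 over 15 animals (two-sided exact sign-flip permutation test, adjusted p = 0.168 over 4 measures). More genes were detected at 1 CPM (a count scaled by the counted reads of its library) or more in the hypothalamus, with 14460 to 14785 genes per library against 13953 to 14284 in the cerebellum. That difference was 507 genes (SD 142, n = 15) and had the same sign in 15 of 15 animals (adjusted p = 0.000244, same test, and its unadjusted p of 6.1e-05 is the smallest that 15 animals allow).

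Of 27179 genes in the count table, 13016 passed the filter of the study and were tested with edgeR, with the animal as a block. At an adjusted p below 0.05, 10452 genes (80.3%) differed between the regions, 5192 (39.9%) higher in the hypothalamus and 5260 (40.4%) higher in the cerebellum. Since so many genes differed, a second test asked whether the difference was larger than 2-fold. It was passed by 2396 genes (18.4%), 1433 higher in the hypothalamus (11.0%) and 963 higher in the cerebellum (7.40%). These shares are the background for the counts given for each gene list. The absolute log2 difference had a median of 0.415 over all genes tested and was 1.94 at its 90th percentile. Of the genes past the 2-fold test, 164 were more than 5 log2 units higher in the hypothalamus and 70 were more than 5 log2 units higher in the cerebellum. The ranges of the libraries did not overlap between the regions for 4459 genes (34.3%), among them 2266 of the 2396 genes past the 2-fold test. The direction was the same in all 15 animals for 6320 genes (48.6%).

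**Figure D1:**
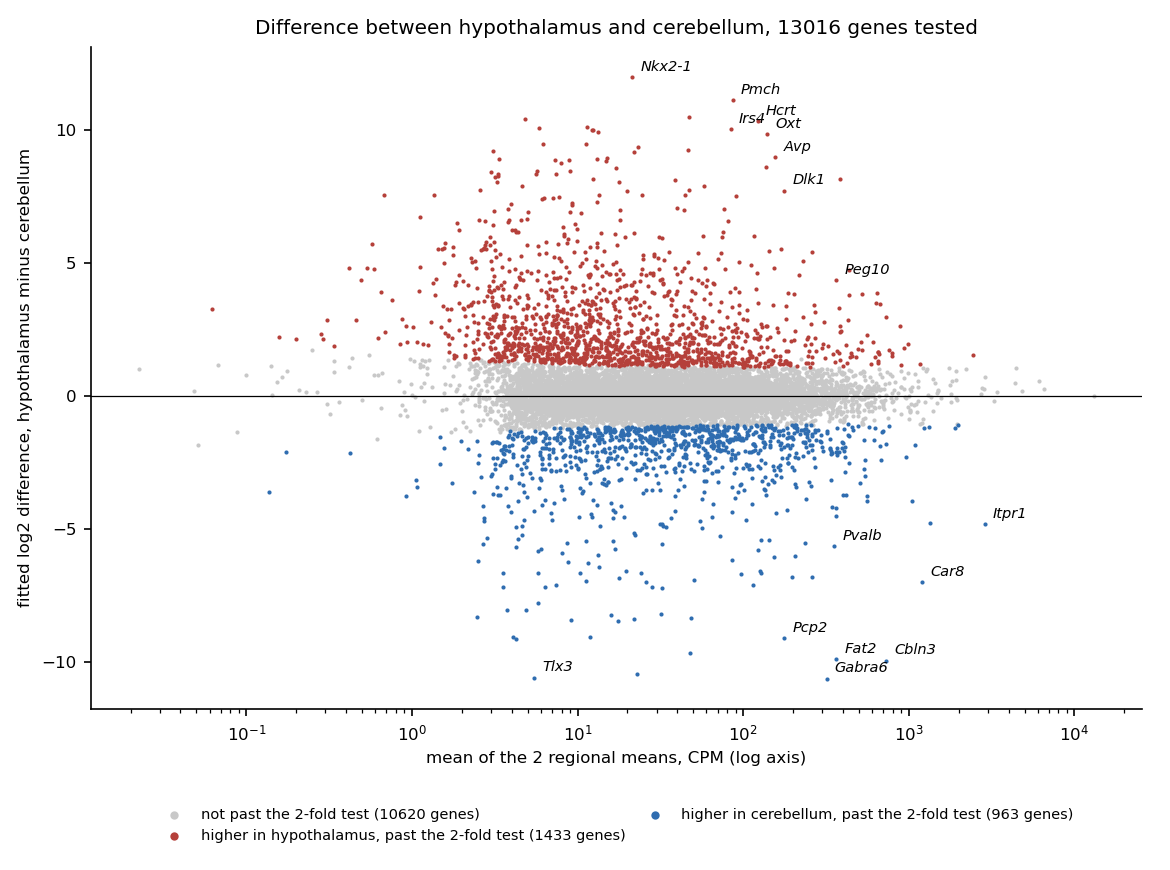
Fitted log2 difference, hypothalamus minus cerebellum, of each of the 13016 genes tested, against the mean of its 2 regional mean levels in CPM on a log axis. Red and blue points passed the 2-fold test, and the lowest is Gabra6 at −10.62 log2 units. Values of genes with almost no reads in a region depend on the small count that the fit adds.

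The promoters of 5 genes are shown first, because these genes make or package peptide hormones, a group described below, and because each holds a full cyclic AMP response element, the letters TGACGTCA (the same on both strands), printed in capitals. The sequences are those of RefSeq on GRCm38.p6, run 5′ to 3′ along the gene and cover 250 bases before to 50 bases after the start. Cartpt (cocaine- and amphetamine-regulated transcript) lies on the minus strand with its promoter at chr13:99900634-99900933, Sst (somatostatin) on the minus strand at chr16:23890795-23891094, Pcsk1 (a convertase that cuts prohormones) on the plus strand at chr13:75089607-75089906, Scg2 (a granin of secretory granules) on the minus strand at chr1:79439977-79440276 and Chgb (chromogranin B, another granin) on the plus strand at chr2:132781392-132781691.
Cartpt: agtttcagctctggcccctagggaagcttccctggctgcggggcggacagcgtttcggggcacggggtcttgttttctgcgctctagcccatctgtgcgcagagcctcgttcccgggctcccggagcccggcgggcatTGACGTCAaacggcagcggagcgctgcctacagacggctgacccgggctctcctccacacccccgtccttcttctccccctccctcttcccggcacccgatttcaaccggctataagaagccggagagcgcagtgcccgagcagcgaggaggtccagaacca
Sst: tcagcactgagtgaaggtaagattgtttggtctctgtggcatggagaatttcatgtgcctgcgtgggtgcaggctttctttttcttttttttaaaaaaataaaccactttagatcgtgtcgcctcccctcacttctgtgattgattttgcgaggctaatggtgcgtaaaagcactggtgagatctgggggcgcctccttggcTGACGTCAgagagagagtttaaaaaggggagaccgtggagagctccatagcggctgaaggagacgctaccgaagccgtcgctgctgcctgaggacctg
Pcsk1: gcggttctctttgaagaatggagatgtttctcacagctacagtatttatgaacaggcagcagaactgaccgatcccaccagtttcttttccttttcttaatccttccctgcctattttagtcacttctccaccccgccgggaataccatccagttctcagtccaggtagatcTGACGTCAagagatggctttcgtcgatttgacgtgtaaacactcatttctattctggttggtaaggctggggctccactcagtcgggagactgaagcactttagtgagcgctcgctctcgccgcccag
Scg2: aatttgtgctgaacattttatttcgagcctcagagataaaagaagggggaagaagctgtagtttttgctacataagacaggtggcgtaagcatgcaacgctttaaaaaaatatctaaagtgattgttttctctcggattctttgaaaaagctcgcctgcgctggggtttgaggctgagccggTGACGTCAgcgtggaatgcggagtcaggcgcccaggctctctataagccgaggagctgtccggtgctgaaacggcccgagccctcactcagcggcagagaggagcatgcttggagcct
Chgb: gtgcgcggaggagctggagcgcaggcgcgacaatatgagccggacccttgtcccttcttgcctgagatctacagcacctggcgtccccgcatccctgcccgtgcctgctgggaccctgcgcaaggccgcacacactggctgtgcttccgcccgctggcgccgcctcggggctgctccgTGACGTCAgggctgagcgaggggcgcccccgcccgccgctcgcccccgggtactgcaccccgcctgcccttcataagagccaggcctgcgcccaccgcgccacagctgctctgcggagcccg

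The first base of the element was 112 bases before the start in Cartpt, 48 in Sst, 78 in Pcsk1, 68 in Scg2 and 72 in Chgb. The first 4 genes were higher in the hypothalamus and Chgb was higher in the cerebellum, so the same letters stood in promoters of genes with opposite differences. A promoter sequence was matched for 10260 of the 13016 genes tested, and 3.52% of these held TGACGTCA, against 2.03% of all 27025 promoters in the table. The share was 2.36% of 1102 matched genes past the 2-fold test in the hypothalamus and 3.58% of 727 in the cerebellum. Among the neuropeptides it was 2 of 21 genes, and among the processing enzymes and granins 3 of 14. The letters TATAAA on either strand were held by 15.7% of all 27025 promoters, by 8.52% of the matched genes tested, by 11.9% of those higher in the hypothalamus and by 10.6% of those higher in the cerebellum. They stood in 7 of the 21 matched neuropeptide genes (Hcrt, Pmch, Pomc, Ghrh, Vip, Npvf and Adcyap1) and in 1 of the 14 processing enzymes and granins. These matches are a description of the letters only.

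Nearly all neuropeptides measured were higher in the hypothalamus. Of 37 neuropeptide genes listed, 26 passed the filter, and 23 of these were more than 2-fold higher in the hypothalamus (background 11.0%), with a median log2 difference of 6.12 against −0.01 over all genes. Peptides read only in the hypothalamus passed the filter through its libraries, so this count and median are partly set by the filter. Pmch, the precursor of melanin-concentrating hormone of the lateral hypothalamus (chr10:88091072-88092374), was at 100.3 to 290.4 CPM (median 164) in the hypothalamus and at 0 to 0.299 CPM (median 0.0516) in the cerebellum. Its log2 difference was 11.13 ± 0.16 (SE, adjusted p = 7.66e-25), with the same sign in 15 of 15 animals. Hcrt, the orexin precursor that neighbouring neurons of the same area make, was at 151 to 367 CPM (median 231) against 0 to 0.963 CPM (median 0.0911), a log2 difference of 10.33 ± 0.25 (adjusted p = 7.63e-17). Every hypothalamus library was far above every cerebellum library for both genes.

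The hormones of the posterior pituitary were among these genes. Oxt, oxytocin, was at 145 to 482 CPM (median 259) in the hypothalamus and 0 to 2.17 CPM (median 0.21) in the cerebellum, a log2 difference of 9.83 ± 0.27 (adjusted p = 2.19e-15). Avp, vasopressin, was at 124 to 493 CPM (median 303) and 0 to 6.57 CPM (median 0.413), a log2 difference of 8.98 ± 0.38 (adjusted p = 2.76e-12). The hypothalamus libraries spread over several fold for both genes, yet their ranges stayed clear of the cerebellum. Of the peptides that drive the anterior pituitary, Trh differed by 9.26 ± 0.27 log2 units, Ghrh by 6.14 ± 0.35 and Crh by 3.99 ± 0.24. Sst, which restrains growth hormone and is also a transmitter of forebrain interneurons, was at 117 to 222 CPM (median 139) in the hypothalamus and 1.08 to 4.25 CPM (median 2.06) in the cerebellum, a log2 difference of 6.14 ± 0.14.

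The feeding peptides of the arcuate nucleus were all higher in the hypothalamus, but by different amounts. Cartpt, which lowers feeding, was at 75.1 to 112 CPM (median 93.5) against 0 to 0.299 CPM (median 0), a log2 difference of 10.47 ± 0.17. Pomc, the precursor of melanocortins, was at 58.6 to 112 CPM (median 82.6) against 0.971 to 29.1 CPM (median 1.56), and 1 cerebellum library (animal 427) carried the highest of the latter values. Agrp, the opponent of the melanocortins, differed by 4.64 ± 0.26 log2 units and its partner Npy by 1.31 ± 0.11. Npy was also read at 10.3 to 15.7 CPM (median 13.6) in the cerebellum. At the other end of the list, Nmb was not past the 2-fold test (log2 difference 1.03 ± 0.17, adjusted p of that test 0.919). The opioid precursor Penk was slightly lower in the hypothalamus, at 79.1 to 109.7 CPM (median 91.6) against 92.1 to 118 CPM (median 103), a log2 difference of −0.15 ± 0.04 (adjusted p = 7.48e-04, lower in 14 of 15 animals). Cck, cholecystokinin, was the only listed peptide more than 2-fold higher in the cerebellum, at 36.8 to 53.5 CPM (median 43.1) there and 15.4 to 29.8 CPM (median 19.7) in the hypothalamus, a log2 difference of −1.16 ± 0.07. The 11 listed peptides under the filter, among them Gnrh1 (median 1.73 CPM), Kiss1 (1.67 CPM) and Ucn3 (2.94 CPM) in the hypothalamus, were not tested.

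**Figure D2:**
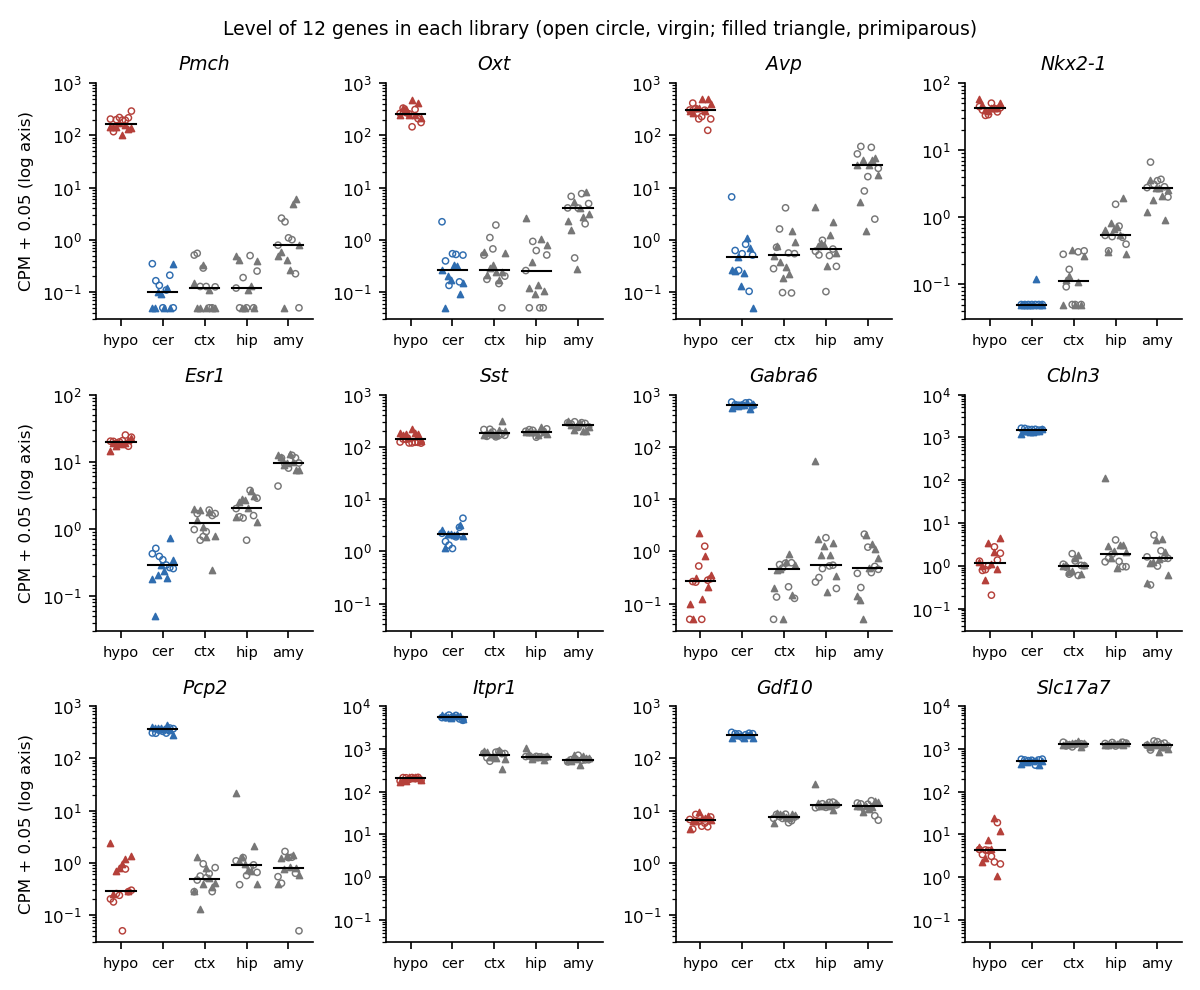
Level in CPM of 12 genes in each library, on a log axis after adding 0.05, in the hypothalamus (red), cerebellum (blue) and the neocortex, hippocampus and amygdala (grey), with the median as a bar. Hypothalamic peptides and Nkx2-1 are near 0 in the cerebellum, Gabra6, Cbln3 and Pcp2 are near 0 in the hypothalamus, and Slc17a7 is high in each region other than the hypothalamus.

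Transcription factors that mark hypothalamic nuclei had the largest median difference of the lists. Of 35 listed, 30 passed the filter and 26 of them were more than 2-fold higher in the hypothalamus, with a median log2 difference of 7.58. None was past that test in the cerebellum. Factors read only in the hypothalamus passed the filter through its libraries, so these counts are a description. Nkx2-1, a homeobox factor that sets up the ventral forebrain (chr12:56531935-56536908), was at 32.9 to 57.7 CPM (median 42) in the hypothalamus and had 1 read in all 15 cerebellum libraries together. The ratio of the pooled levels was therefore 12400, with an interval of 2230 to 491000 that covers counting error only and not the spread between animals. The fitted log2 difference, 11.98, is another quantity, taken from the paired fit, which adds a small count to each library, and it is no bound. Its relative Nkx2-4 had no read in the cerebellum and was at 4.5 to 15.7 CPM (median 9.32) in the hypothalamus, at least 923-fold higher against a floor of 3 reads over the group. Sfta3-ps, a pseudogene beside Nkx2-1 on chromosome 12, had 1 read in the cerebellum as well.

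Factors of single nuclei were read at lower levels in this whole dissection but were almost absent from the cerebellum. Sim1 and Otp, which are needed for the peptide neurons of the paraventricular nucleus, were at 16.6 to 32.2 CPM (median 22.6) and 16.9 to 41.1 CPM (median 22.6) in the hypothalamus, and no cerebellum library was above 0.15 CPM for either. Nr5a1, the marker of the ventromedial nucleus, differed by 8.74 ± 0.26 log2 units, Six6 of the suprachiasmatic nucleus by 9.46 ± 0.23, Isl1 of the arcuate nucleus by 9.91 ± 0.20 and Fezf1 by 9.98 ± 0.20. Foxb1, which marks the mammillary area, differed by 6.11 ± 0.16. The Dlx genes, which specify forebrain GABA neurons, were also nearly absent from the cerebellum, with log2 differences of 7.42 for Dlx2, 7.75 for Dlx5, 8.16 for Dlx1 and 8.33 for Dlx6. Irx5 was the only listed factor not called (log2 difference −0.10 ± 0.12, adjusted p = 0.449).

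Most receptors for peptides and hormones that could be tested were higher in the hypothalamus. Of 47 listed receptor genes, 42 passed the filter, 32 of them were more than 2-fold higher in the hypothalamus and 3 were more than 2-fold higher in the cerebellum. The median log2 difference was 3.97. Here too, receptors read only in the hypothalamus passed the filter through its libraries. Ghsr, the ghrelin receptor, was at 8.13 to 15.1 CPM (median 11.5) in the hypothalamus and 0 to 0.103 CPM (median 0) in the cerebellum, a log2 difference of 8.47 ± 0.23 (adjusted p = 2.58e-20). Gpr50, a melatonin receptor relative found in tanycytes, differed by 8.45 ± 0.26, the neurotensin receptor Ntsr1 by 7.54 ± 0.26 and the neurokinin B receptor Tacr3 by 7.28 ± 0.23. Adcyap1r1, the PACAP receptor, held the most reads of the list in the hypothalamus and was at 423 to 509 CPM (median 463) there against 119 to 149.6 CPM (median 134), a log2 difference of 1.81 ± 0.03.

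Of the listed receptors, 6 were lower in the hypothalamus, 3 of them by the 2-fold test. Crhr1, the first receptor of corticotropin-releasing hormone, was at 59.5 to 106 CPM (median 90.6) in the cerebellum and 9.14 to 19.1 CPM (median 11.9) in the hypothalamus, a log2 difference of −2.82 ± 0.07 (adjusted p = 4.03e-21). The second receptor, Crhr2, was higher in the hypothalamus by 4.77 ± 0.44, so this pair of receptors divided between the regions. The VIP receptors Vipr1 (−1.74 ± 0.25) and Vipr2 (−1.42 ± 0.12) were also more than 2-fold higher in the cerebellum, where Vip itself was at 0 to 0.149 CPM (median 0). Insr, the insulin receptor, and Igf1r, the receptor of insulin-like growth factor, were lower in the hypothalamus by small amounts (−0.18 ± 0.05 and −0.44 ± 0.06). The call of Insr was lost (−0.122) in a fit of the animals whose label number has 3 digits, which are one of the 2 kinds of animal number in the labels. Lepr, the leptin receptor, was higher in the hypothalamus by 0.84 ± 0.14 without passing the 2-fold test.

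Nuclear receptors for steroids and thyroid hormone were split. Of 15 that passed the filter, 6 were more than 2-fold higher in the hypothalamus and 3 in the cerebellum. The median of their log2 differences was −0.08. Esr1, the alpha oestrogen receptor (chr10:4611989-5005633), was at 14.3 to 24.8 CPM (median 19.4) in the hypothalamus and 0 to 0.679 CPM (median 0.238) in the cerebellum, a log2 difference of 6.26 ± 0.18 (adjusted p = 5.10e-20). Pgr, the progesterone receptor, was at 32.3 to 54 CPM (median 43.9) in the hypothalamus and 12.2 to 21.9 CPM (median 16.2) in the cerebellum, a log2 difference of 1.45 ± 0.08. Rxrg, a retinoid receptor, differed by 5.73 ± 0.20. On the cerebellar side stood the 3 oestrogen-related orphan receptors, Esrrb (−2.73 ± 0.13), Esrrg (−1.97 ± 0.07) and Esrra (−1.50 ± 0.06), which bind no oestrogen. The glucocorticoid receptor Nr3c1 was at 92.4 to 146 CPM (median 124) and 112 to 155 CPM (median 132), and was not called with all animals (log2 difference −0.08 ± 0.05, adjusted p = 0.187), but it was in primiparous females alone and without animal 4491 (log2 differences −0.21 and −0.12). Its sign was the opposite in virgin females alone (0.09).

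Peptides are cut and stored by a common machinery, and most of it was higher in the hypothalamus. Of 16 processing enzymes and granins, all of which passed the filter, 9 were more than 2-fold higher in the hypothalamus and 2 in the cerebellum, with a median of 1.29. Resp18, a protein of the secretory path, was at 376 to 489.6 CPM (median 411) against 14.8 to 20 CPM (median 17) (log2 difference 4.56 ± 0.05). Vgf, a granin precursor, differed by 3.84 ± 0.10, Pam, the enzyme that amidates peptide ends, by 3.17 ± 0.05 and Scg2 by 2.98 ± 0.05. Pcsk1 was at 66.3 to 100.1 CPM (median 80.2) against 15.7 to 25.7 CPM (median 19.2), a log2 difference of 1.99 ± 0.09, while its relative Pcsk2 differed by 1.04 ± 0.04. The carboxypeptidase Cpe, with the most reads of the list, was at 2121 to 2669.8 CPM (median 2353) and 987 to 1266 CPM (median 1133), just over 2-fold apart. Higher in the cerebellum were Chgb, at 679 to 1031 CPM (median 766) there against 308 to 404 CPM (median 351), and Cadps2, a factor for release of dense-core vesicles from granule cells (log2 difference −1.74 ± 0.04). Scg3 was also lower in the hypothalamus (log2 difference −0.53 ± 0.05).

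Imprinted genes, which can be read from the copy of 1 parent only, leaned to the hypothalamus. Of 38 that passed the filter, 20 were more than 2-fold higher there and 2 in the cerebellum, with a median of 1.19. Dlk1, a Notch pathway ligand read from the paternal copy (chr12:109452485-109463336), was at 311 to 400.0 CPM (median 346) in the hypothalamus and 0.584 to 5.74 CPM (median 1.02) in the cerebellum, a log2 difference of 7.71 ± 0.25. Magel2, a gene of the Prader-Willi region, was at 73.8 to 104 CPM (median 88.4) against 0.0963 to 1.1 CPM (median 0.443) (7.55 ± 0.13). Calcr, the calcitonin receptor, differed by 7.0 ± 0.17, Asb4 by 5.34 ± 0.10 and Peg10 by 4.36 ± 0.05. Peg3, which has been linked to maternal behaviour, was at 906 to 1061 CPM (median 987) against 161 to 357 CPM (median 233), and its neighbour Usp29, which starts from the same promoter region and may share reads with it, differed by 3.14 ± 0.07.

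Meg3, a long noncoding RNA with the most reads of the list in the hypothalamus, was at 2399.9 to 4900.3 CPM (median 3490.5) in the hypothalamus and 595 to 2106 CPM (median 1229) in the cerebellum. Its log2 difference was 1.54 ± 0.15, higher in 15 of 15 animals, and the ranges did not overlap. Igf2, a growth factor of the choroid plexus and meninges, was higher in the cerebellum, at 68.7 to 197 CPM (median 109) against 16.7 to 89.6 CPM (median 24.3) (−2.07 ± 0.20). Airn, an antisense RNA that overlaps Igf2r, was higher in the cerebellum (log2 difference −3.07 ± 0.18), as was Igf2r itself (−0.35 ± 0.07), whose call was lost in primiparous females alone (−0.151). The library kit does not mark strand, so reads of the 2 genes cannot be told apart where they overlap. Of the 38 genes, 5 were not called.

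**Figure D3:**
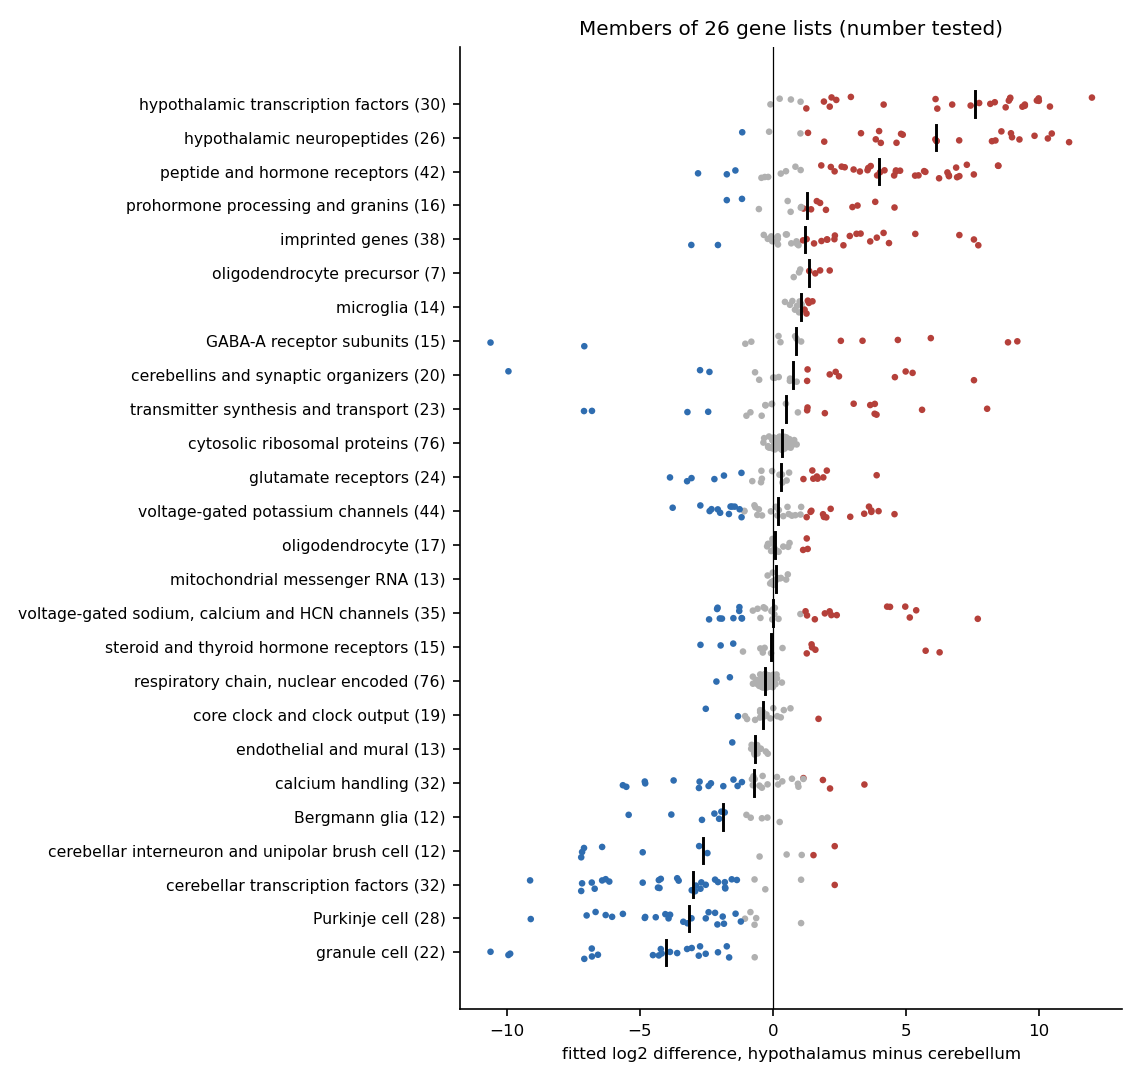
Fitted log2 difference, hypothalamus minus cerebellum, of each tested member of 26 gene lists (number of members in brackets), with the median of each list as a bar. Red and blue points passed the 2-fold test, and the medians run from 7.58 for hypothalamic transcription factors to −4.03 for granule cell markers.

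Granule cell genes led the cerebellar side. All 22 listed markers passed the filter, 21 were more than 2-fold higher in the cerebellum (background 7.40%), none was higher in the hypothalamus, and the median log2 difference was −4.03. Gabra6, the alpha6 subunit of the GABA-A receptor that in the adult brain is made mainly by these cells (chr11:42306437-42321072), was at 536 to 717 CPM (median 636) in the cerebellum and 0 to 2.22 CPM (median 0.222) in the hypothalamus, a log2 difference of −10.62 ± 0.28 (adjusted p = 2.34e-15). Cbln3, a secreted partner of cerebellin 1, was at 1204 to 1629 CPM (median 1470.2) against 0.155 to 4.35 CPM (median 1.11) (−9.94 ± 0.25), and the cadherin Fat2 was at 495 to 992 CPM (median 709.9) against 0 to 3.83 CPM (median 0.397) (−9.88 ± 0.33). In each of these genes the lowest cerebellum library was more than 100 times the highest hypothalamus library.

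Granule cell transcription factors differed by less than these. Neurod1, which drives their differentiation, differed by −6.81 ± 0.08, Zic2 by −4.29 ± 0.12, Zic1 by −4.22 ± 0.12 and Pax6 by −3.60 ± 0.06. Slc17a7, the vesicular glutamate transporter of granule cells and of cortical neurons, was at 414 to 574 CPM (median 528) in the cerebellum and 1.04 to 24.5 CPM (median 4.23) in the hypothalamus. The hypothalamus values of Slc17a7 were uneven, and the highest was from primiparous animal 425. Rbfox3, the gene of the neuronal antigen NeuN, was higher in the cerebellum (−1.65 ± 0.05). Calb2, calretinin, was the only marker under the 2-fold test, at 287 to 394 CPM (median 331) in the cerebellum and 179.8 to 245 CPM (median 211) in the hypothalamus (−0.69 ± 0.04).

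Purkinje cell markers followed. All 28 passed the filter, 23 were more than 2-fold higher in the cerebellum, and the median log2 difference was −3.14. Pcp2, a regulator of G proteins made by Purkinje cells (chr8:3623369-3625547), was at 273 to 441 CPM (median 368) in the cerebellum and 0 to 2.31 CPM (median 0.245) in the hypothalamus, a log2 difference of −9.11 ± 0.22 (adjusted p = 1.00e-16). Car8, which binds the IP3 receptor, was at 2098 to 2833 CPM (median 2426) against 15.1 to 22.8 CPM (median 18.9) (−7.01 ± 0.08). Arhgef33 differed by −6.67 ± 0.09, the transcriptional repressor Skor2 by −6.29 ± 0.24 and the scaffold Homer3 by −6.05 ± 0.09. Calb1, a calcium buffer, differed by −2.42 ± 0.07 and Gad1, an enzyme that makes GABA, by −0.85 ± 0.04. Foxp2, a transcription factor of Purkinje cells and of many forebrain neurons, was the only member higher in the hypothalamus, at 16.1 to 34.3 CPM (median 26.8) against 10.6 to 14.7 CPM (median 12.4) (1.05 ± 0.09, adjusted p = 1.41e-10).

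Genes of calcium release, pumping, buffering and sensing were higher in the cerebellum in 13 of 32 tested and higher in the hypothalamus in 4, by the 2-fold test. Itpr1, the IP3 receptor that releases calcium in Purkinje cells (chr6:108213083-108551116), was at 4636 to 6137 CPM (median 5650.5) in the cerebellum and 170.2 to 218 CPM (median 205) in the hypothalamus, a log2 difference of −4.80 ± 0.05 (adjusted p = 1.04e-27). Its relative Itpr3 was higher in the cerebellum too (−2.79 ± 0.11), while the difference of Itpr2 (0.19 ± 0.06) was called with all animals and lost its call in 4 alternatives (0.1 to 0.155), among them virgin females alone. The pump Atp2a3 was at 418 to 497 CPM (median 459.9) against 7.46 to 18 CPM (median 9.82) (−5.51 ± 0.08), the buffer Pvalb at 571 to 865 CPM (median 689) against 7.19 to 18.5 CPM (median 14.2) (−5.64 ± 0.10) and the kinase Camk4 differed by −3.74 ± 0.05. The 4 genes on the other side were Hpcal4 (3.43 ± 0.05), a calcium sensor, the plasma membrane pump Atp2b4 (2.14 ± 0.05), the kinase Camk2a (1.87 ± 0.04) and the sensor Hpca (1.14 ± 0.04). For Ryr3, a release channel, the difference was 1.14 ± 0.08, which did not pass the 2-fold test (adjusted p = 0.0642).

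Interneuron and glial markers of the cerebellum had members on both sides. Of 12 markers of cerebellar interneurons and unipolar brush cells, 7 were more than 2-fold higher in the cerebellum and 2 in the hypothalamus. Slc6a5, the glycine transporter of Golgi cells, was at 13.2 to 16.8 CPM (median 14.4) against 0 to 0.605 CPM (median 0) (−7.11 ± 0.31), and Eomes, a factor of unipolar brush cells, at 15.4 to 42.7 CPM (median 23.9) against 0 to 1.06 CPM (median 0.186). The 2 exceptions were Lmx1a (2.32 ± 0.19) and Nxph1 (1.52 ± 0.06). Of 12 Bergmann glia markers, 7 were more than 2-fold higher in the cerebellum and none in the hypothalamus. Gdf10, a TGF-beta family factor, was at 242 to 313 CPM (median 282) against 4.37 to 9.34 CPM (median 6.43) (−5.43 ± 0.08), Hopx differed by −3.82 ± 0.05 and the glutamate transporter Slc1a3 by −1.0 ± 0.05. Fabp7, also made by Bergmann glia, was slightly higher in the hypothalamus (0.25 ± 0.09, adjusted p = 0.0147), a call lost without animal 409 (0.18) or 4486 (0.20) and in primiparous females alone (0.01).

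Transcription factors of the cerebellum mirrored those of the hypothalamus. Of 36 listed, 32 passed the filter, and 28 were more than 2-fold higher in the cerebellum and 1, Lmx1a, in the hypothalamus, with a median of −2.99. Pax3 was at 6.35 to 11.9 CPM (median 8.62) and had 2 reads over the 16 hypothalamus libraries, which gives a ratio of 1080 with an interval of 298 to 8900 for counting error only. En2, a marker of the midbrain and hindbrain border, was at 142 to 229.8 CPM (median 191) against 0.556 to 3.07 CPM (median 1.95) (−6.70 ± 0.11), and Tfap2b, a factor of inhibitory precursors, at 54.7 to 76.4 CPM (median 63.4) against 0 to 1.76 CPM (median 0.397) (−7.21 ± 0.23). Tlx3, a homeobox factor outside the lists and among the 10 largest cerebellar differences of genes with a mean of at least 10 CPM, had no read in the hypothalamus and was at 7.13 to 16.4 CPM (median 10.7) in the cerebellum, at least 914-fold higher against a floor of 3 reads over the group. Others among those 10 were Mybpc3 (−10.43 ± 0.19), a gene of heart muscle, the adhesion molecule Crtam (−9.65 ± 0.22), Sycp1 (−9.05 ± 0.26), a gene of meiotic chromosomes, the kinase Nrk (−8.46 ± 0.23) and the sugar transporter Slc5a1 (−8.43 ± 0.33).

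Families of receptors and channels showed members of opposite sign. Among GABA-A receptor subunits, 6 of 15 tested were more than 2-fold higher in the hypothalamus and 2 in the cerebellum. The theta subunit Gabrq was at 37.5 to 51.8 CPM (median 43.7) in the hypothalamus and 0 to 0.427 CPM (median 0) in the cerebellum (9.18 ± 0.22), and the epsilon subunit Gabre at 25 to 36.6 CPM (median 30.2) against 0 to 0.273 CPM (median 0.042) (8.83 ± 0.19). Gabra5 differed by 5.93 ± 0.15, Gabrg3 by 4.69 ± 0.21, Gabra3 by 3.36 ± 0.07 and Gabrg1 by 2.55 ± 0.11. On the cerebellar side, Gabrd, the delta subunit that partners alpha6 in receptors outside synapses, was at 186 to 258 CPM (median 239) against 0.4 to 8.92 CPM (median 1.41) (−7.09 ± 0.20). Gabrb2, a beta subunit, was higher in the cerebellum (−0.82 ± 0.06) without passing the 2-fold test. Gabra4 was not called (log2 difference 0.20 ± 0.10, adjusted p = 0.0565), but it was at nearly the same difference with DESeq2 (0.20) and limma-voom (0.21) and without animal 413 (0.22), 415 (0.23) or 421 (0.27). It was at 0.54 in virgin females and −0.08 in primiparous females taken alone.

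**Figure D4:**
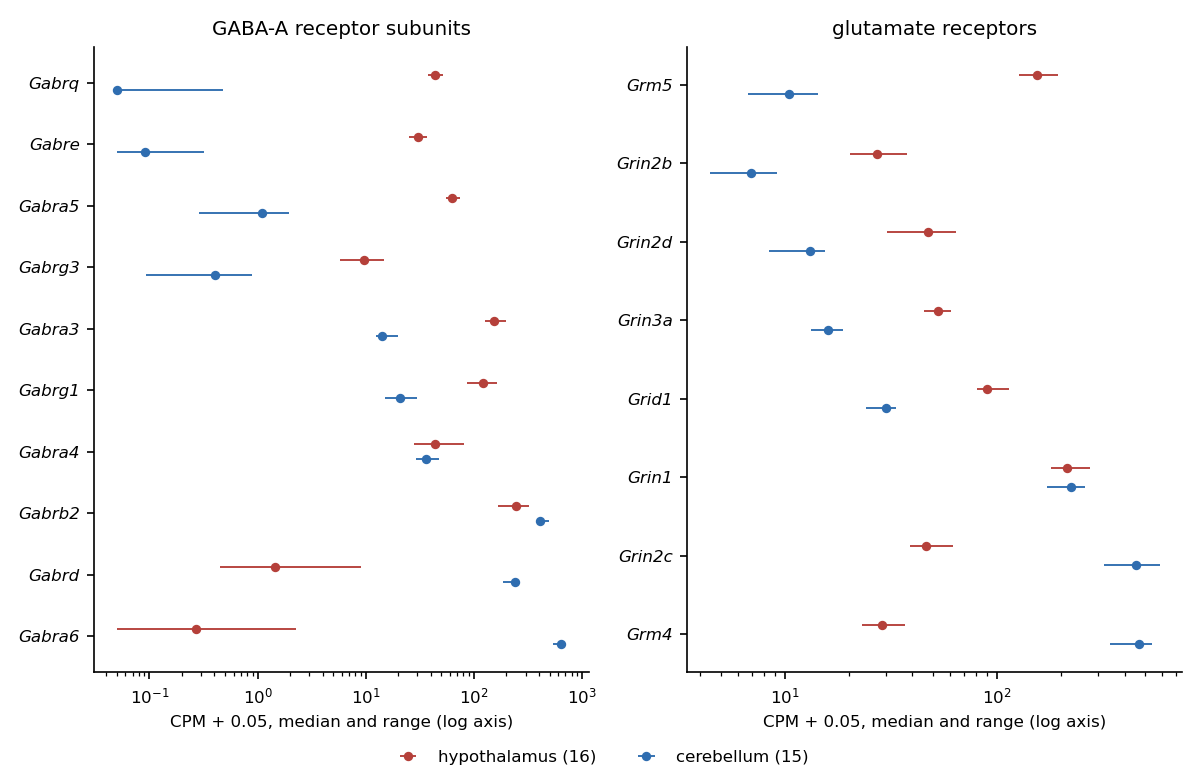
Median level in CPM (plus 0.05, log axis) of the GABA-A receptor subunits and glutamate receptor genes named in the text, in 16 hypothalamus (red) and 15 cerebellum (blue) libraries, with bars from the lowest to the highest library, ordered by fitted log2 difference. The ranges are apart at both ends of each family and overlap for Gabra4 and Grin1.

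Glutamate receptors were split too, with 8 of 24 more than 2-fold higher in the hypothalamus and 6 in the cerebellum. The metabotropic receptor Grm5 was at 127 to 195 CPM (median 155) in the hypothalamus and 6.66 to 14.2 CPM (median 10.4) in the cerebellum (3.89 ± 0.09). The presynaptic receptor Grm4 was higher in the cerebellum (−3.87 ± 0.07). The NMDA receptor subunits divided likewise. Grin2c was at 319 to 584 CPM (median 452) in the cerebellum against 39.1 to 62.3 CPM (median 46.5) (−3.23 ± 0.10), and Grin2b (2.02 ± 0.10), Grin2d (1.89 ± 0.08) and Grin3a (1.67 ± 0.06) were higher in the hypothalamus. The subunit that all NMDA receptors share, Grin1, was at 180.5 to 275 CPM (median 214) and 172 to 259.6 CPM (median 224) and was not called (log2 difference −0.04 ± 0.06, adjusted p = 0.597). The delta receptor Grid1 was higher in the hypothalamus (1.65 ± 0.05).

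Among 23 genes for the synthesis and transport of transmitters, 10 were more than 2-fold higher in the hypothalamus and 4 in the cerebellum. The vesicular glutamate transporters exchanged places, with Slc17a6 at 277 to 435 CPM (median 343) in the hypothalamus and 15.7 to 36 CPM (median 22.3) in the cerebellum (3.89 ± 0.13), against a difference of −6.81 ± 0.29 for Slc17a7. Both enzymes that make GABA were present in both regions, and Gad2 was higher in the hypothalamus (1.29 ± 0.06) while Gad1 was higher in the cerebellum (−0.85 ± 0.04). The GABA transporter Slc6a11 of astrocytes was at 849 to 1105 CPM (median 980.4) against 54 to 90.7 CPM (median 68.9) (3.82 ± 0.06). Slc6a3, the dopamine transporter, differed by 8.05 ± 0.25, Slc18a2, the vesicular amine transporter, by 3.82 ± 0.13, Hdc, the histamine enzyme of the tuberomammillary nucleus, by 3.03 ± 0.08 and Th, the first enzyme of dopamine synthesis, by 1.95 ± 0.11. Of the listed amine genes under the filter, which were not tested, Slc6a2, the noradrenaline transporter, had medians of 0 CPM in the hypothalamus and 0.966 CPM in the cerebellum, and Tph2, the serotonin enzyme, of 0.447 and 0.689 CPM.

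Cerebellins and related organizers of synapses also divided by member. Cbln1 was at 822 to 1042 CPM (median 924) in the cerebellum and 117 to 158 CPM (median 138) in the hypothalamus (−2.74 ± 0.05), and Cbln3 was near 0 in the hypothalamus, as given above. Cbln2 and Cbln4 were higher in the hypothalamus, Cbln2 at 39 to 55.7 CPM (median 48.1) against 0 to 0.804 CPM (median 0.299) (7.55 ± 0.17) and Cbln4 at 47.2 to 68.3 CPM (median 57) against 0.575 to 3.74 CPM (median 1.43) (5.24 ± 0.10). The pentraxins were divided in the same way, with Nptx1 higher in the cerebellum (−2.39 ± 0.05) and Nptx2 in the hypothalamus (4.58 ± 0.15). In the whole list 9 of 20 tested genes were more than 2-fold higher in the hypothalamus and 3 in the cerebellum.

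Ion channels gave counts that were nearly equal on both sides. Of 44 potassium channel genes, 14 were more than 2-fold higher in the hypothalamus and 12 in the cerebellum, with a median of 0.19. In the Kv3 family, which allows fast firing, Kcnc1 was higher in the cerebellum (−1.66 ± 0.05) and Kcnc2 was higher in the hypothalamus (3.6 ± 0.09). Kcna1 (−2.31 ± 0.06) and Kcna5 (4.56 ± 0.21) stood apart in the Kv1 family. Of 35 sodium, calcium and HCN channel genes, 13 were more than 2-fold higher in the hypothalamus and 10 in the cerebellum. The sodium channel Scn3a was at 86.5 to 138 CPM (median 107) in the hypothalamus and 1.82 to 4.03 CPM (median 2.43) in the cerebellum (5.38 ± 0.09), and Scn9a (4.39 ± 0.09) was higher in the hypothalamus as well. Scn4b (−2.40 ± 0.07) and Cacna1a (−2.08 ± 0.06), the P-type calcium channel of Purkinje cells, were higher in the cerebellum. Among T-type calcium channels Cacna1g was higher in the cerebellum (−2.0 ± 0.05) and Cacna1h in the hypothalamus (4.29 ± 0.09).

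Cytosolic ribosomal protein genes and nuclear genes of the respiratory chain differed mostly by small amounts, each list mostly in its own direction. Of 76 cytosolic ribosomal protein genes tested, 61 were higher in the hypothalamus, 4 in the cerebellum and 11 were not called, while none passed the 2-fold test, and the median log2 difference was 0.32. Rpl10 was at 178 to 237 CPM (median 196) and 89.8 to 122 CPM (median 108) (0.89 ± 0.04) and Rpl22 was the lowest of the list (−0.36 ± 0.05). These genes have many processed pseudogenes, and only reads with a single place in the genome were counted. Nuclear genes of the respiratory chain went the other way, with 61 of 76 higher in the cerebellum, 3 in the hypothalamus and a median of −0.29. Only Cox7a1 (−2.13 ± 0.19) and Cox6b2 (−1.62 ± 0.15) passed the 2-fold test. Of 13 messenger RNAs of the mitochondrial genome, 2 were higher in the hypothalamus and 11 were not called, with a median of 0.12. Whether they differed from the nuclear genes was not tested. COX1, with the most reads in both regions, was at 9704 to 16451 CPM (median 13211) and 9596 to 16828 CPM (median 12720.5) (log2 difference 0.02 ± 0.14, adjusted p = 0.911). Its difference was 0.52 in virgin and −0.42 in primiparous females taken alone. ND5 (0.49 ± 0.14) and ND6 (0.55 ± 0.17) were higher in the hypothalamus with all animals, but neither was called in primiparous females alone (0.07 and 0.12).

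Of 19 clock genes, 12 were higher in the cerebellum (40.4% of all genes tested) and 4 in the hypothalamus (39.9%), but only 3 passed the 2-fold test. These were Rora (−2.53 ± 0.05) and Nfil3 (−1.32 ± 0.07), higher in the cerebellum, and Rorb (1.71 ± 0.07), which is high in the suprachiasmatic nucleus. Arntl, the Bmal1 gene, was at 52.6 to 64 CPM (median 54.9) in the cerebellum and 23.4 to 36.8 CPM (median 27.2) in the hypothalamus. The order in which the regions were removed from each brain is not given in the labels. Of 13 immediate early genes, 5 were higher in the hypothalamus (39.9% of all genes tested) and 8 in the cerebellum (40.4%), with a median of −0.50. By the 2-fold test 3 were higher in the hypothalamus, led by Egr3 (2.88 ± 0.33), and 2 in the cerebellum, Ier2 (−2.40 ± 0.12) and Dusp1 (−1.48 ± 0.11).

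Glial and vascular markers were compared as whole lists. All 14 microglia markers were higher in the hypothalamus, 5 of them by the 2-fold test, and their summed level was 416 to 523 CPM there against 183 to 270 CPM in the cerebellum. Csf1r, the receptor that microglia need to survive, was at 70.9 to 100.1 CPM (median 85.1) against 31 to 47.6 CPM (median 40.1) (1.07 ± 0.05). All 7 markers of oligodendrocyte precursors were higher in the hypothalamus, 4 of them by the 2-fold test, for example Gpr17 (1.77 ± 0.05) and Pdgfra (1.59 ± 0.07). Of 17 markers of oligodendrocytes, 8 were higher in the hypothalamus (3 by the 2-fold test), 3 were lower there and 6 were not called. Their median was 0.09. Over all genes tested, 39.9% were higher in the hypothalamus, 40.4% were lower there and 19.7% were not called. Mbp, the myelin basic protein gene and one of the 3 lower in the hypothalamus, was at 2597 to 3428 CPM (median 2935) and 2504 to 4754 CPM (median 3307) (−0.19 ± 0.07, adjusted p = 0.0153). The ranges of Mbp overlapped, its difference was 0.032 in virgin females alone, and the call was lost in animals with 4-digit numbers (−0.035). Their early factors Olig1 (1.3 ± 0.05) and Olig2 (1.13 ± 0.05) were nevertheless higher in the hypothalamus.

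All 13 endothelial and mural markers were lower in the hypothalamus, and 1 of them, Vtn (−1.53 ± 0.06), passed the 2-fold test. Their summed level was 288 to 451 CPM in the hypothalamus and 439 to 653 CPM in the cerebellum. The 3 red cell genes tested were lower in the hypothalamus as well, by 0.61 to 0.75 log2 units. Over all genes tested, 39.9% were higher in the hypothalamus and 40.4% were lower there. Of 15 astrocyte genes, 10 were higher in the hypothalamus (3 by the 2-fold test) and 3 were lower there (1 by that test), with a median of 0.23. Itih3 (2.22 ± 0.05) was among the former, and S100b (−1.93 ± 0.08) and Aqp4 (−0.92 ± 0.07) among the latter. Of 12 genes of tanycytes and ependyma, 8 were more than 2-fold higher in the hypothalamus, among them Crym (4.70 ± 0.25) and the ciliary gene Foxj1 (1.33 ± 0.10), and Vim (−2.03 ± 0.06) and Dio2 (−1.24 ± 0.09), which are made by other glia too, were higher in the cerebellum. The summed level of all 16 genes listed, 4 of them under the filter, was 193 to 305 CPM (median 249) in the hypothalamus and 208 to 310 CPM (median 258) in the cerebellum, so the sum did not follow the count.

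Markers of neighbouring tissue were read beside these results. Of 11 striatal genes, 8 were more than 2-fold higher in the hypothalamus and 1 in the cerebellum, with a median of 3.59, and Isl1 and Six3 are in the hypothalamic list too. Their summed level was 542 to 710 CPM in the hypothalamus and 320 to 439 CPM in the cerebellum. Drd1 and Drd2, the dopamine receptors of that list, had medians of 6.25 and 17.1 CPM in the hypothalamus and 0.344 and 0.46 CPM in the cerebellum. Of 8 thalamic genes, 5 were higher in the hypothalamus (39.9% of all genes tested) and 3 in the cerebellum (40.4%), with a median of 0.32. By the 2-fold test Tcf7l2 (2.20 ± 0.14) and Ntng1 (1.65 ± 0.06) were higher in the hypothalamus and Prkcd (−2.47 ± 0.08) and Rora in the cerebellum, and Tcf7l2 is in the list of hypothalamic factors too. The summed level of the thalamic list was 303 to 562 CPM in the hypothalamus and 505 to 606 CPM in the cerebellum. None of the 13 listed Hox genes of the hindbrain passed the filter. The part of neighbouring tissue in the differences was not tested.

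Some differences varied widely from animal to animal. Ttr, the carrier of thyroxine that the choroid plexus secretes, had the largest SD over animals of the regional difference among genes with a mean of at least 10 CPM in either region, at 18.1 to 3334 CPM (median 65) in the cerebellum and 0.0941 to 6.5 CPM (median 1.62) in the hypothalamus. In the cerebellum the highest level was that of animal 421, and animals 4491 (1200 CPM), 409 (548 CPM) and 4489 (501 CPM) were above all others, whose highest was 115 CPM. Other choroid plexus genes followed the same libraries, for example Slc4a5 (0.774 to 34.2 CPM (median 1.83)) and Enpp2 (117 to 1609 CPM (median 182)), which was 144 to 201 CPM (median 182) in the hypothalamus. The summed level of the choroid plexus list was 176 to 5330 CPM (median 288) in the cerebellum and 231 to 305 CPM (median 286) in the hypothalamus. Of 9 listed genes tested, 5 were more than 2-fold higher in the cerebellum and 1 in the hypothalamus. The log2 difference of Ttr was −6.02 ± 0.74 with all animals, −7.78 in virgin and −4.96 in primiparous females alone, and −4.30 without the 4 animals named. The 4 animals were chosen by their cerebellar Ttr, so the last value is nearer 0 by construction. Without these 4 animals, an alternative chosen after seeing the data, 2327 genes passed the 2-fold test, 2298 of them shared with the 2396 of all animals.

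These cerebellum libraries touched results on receptors. Prlr, the prolactin receptor that both hypothalamic neurons and the choroid plexus make, was at 38.3 to 64.7 CPM (median 51.9) in the hypothalamus and 0.421 to 40.9 CPM (median 0.924) in the cerebellum, where 40.9 CPM in animal 421 and 9.06, 7.24 and 5.24 CPM in animals 4491, 409 and 4489 stood above 1.41 CPM in the next library. Its log2 difference was 4.62 ± 0.53 with all animals and 5.95 ± 0.15 without these 4. Crhr2 moved in the same way, from 4.77 ± 0.44 to 6.40 ± 0.35. Kl, which encodes klotho, the co-receptor for a hormone made by bone, was at 8.53 to 15.2 CPM (median 10.6) in the hypothalamus and 2.48 to 113 CPM (median 5.35) in the cerebellum. It was not called with all animals (log2 difference 0.38 ± 0.39, adjusted p = 0.374), but was at 1.08 ± 0.17 without these 4 (edgeR, adjusted p = 1.43e-05). These animals also had the 4 highest cerebellar Kl levels (113, 36.2, 21.1 and 17.9 CPM). Leaving them out therefore raised the differences of Kl and of Prlr by construction, and the second p-value of Kl is a description only.

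Pituitary genes varied by animal in both regions. Prl, prolactin, was at 0 to 119.8 CPM (median 1.02) in the hypothalamus and 0 to 90.1 CPM (median 0.758) in the cerebellum. The highest hypothalamus libraries were those of animals 4490 (119.8 CPM), 427 (97.3 CPM) and 414 (59.6 CPM), and the highest cerebellum libraries those of animals 427 (90.1 CPM), 413 (24.7 CPM) and 414 (17.2 CPM). Animals 427 and 414 were thus high in both regions, and Gh, growth hormone, was high in the same libraries. Neither Prl (log2 difference 0.56 ± 0.70, adjusted p = 0.468) nor Gh (0.60 ± 0.57, adjusted p = 0.34) was called with all animals. Without animal 413 both were (edgeR, adjusted p = 0.0381 for Prl and 0.0338 for Gh). Gh was also called in virgin females alone (log2 difference 1.74, adjusted p = 0.00984). Pomc, which the pituitary makes too, was at 29.1 CPM in the cerebellum of animal 427 and 9.52 CPM in that of animal 414, and its difference was 4.81 ± 0.36 with all animals and 5.10 ± 0.27 without animal 427. Slc6a3 was at 4.56 to 88.8 CPM (median 26.1) across hypothalamus libraries and 0 to 0.378 CPM (median 0.102) in the cerebellum, so that the ranges did not overlap in spite of this spread.

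**Figure D5:**
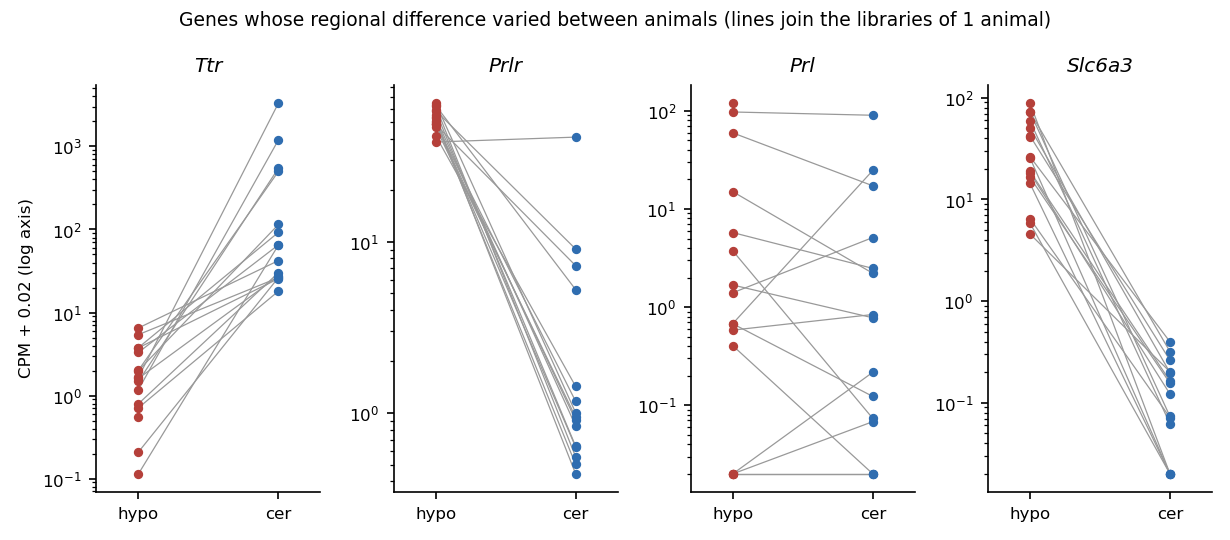
Level in CPM (plus 0.02, log axis) of 4 genes of the 5 whose regional difference varied most between animals, in the hypothalamus (red) and the cerebellum (blue), with lines that join the 2 libraries of 1 animal. Cerebellar Ttr spans 18.1 to 3334 CPM, animal 421 has Prlr at 38.3 CPM in the hypothalamus and 40.9 CPM in the cerebellum, and Prl has no common direction.

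The neocortex, hippocampus and amygdala of the same animals showed on which side the other regions lay. For each gene past the 2-fold test their mean log2 level was placed on a line from the cerebellum to the hypothalamus. The level of each region was log2 of its mean CPM plus 1, so the hippocampus library with high Gabra6 named below is included. Of the 1433 genes higher in the hypothalamus, the 3 regions together were nearer the hypothalamus or beyond it for 484 and 405 genes (33.8% and 28.3%), and nearer the cerebellum or beyond it for 455 and 89 (31.8% and 6.21%). Of the 963 genes higher in the cerebellum, they were nearer the hypothalamus or beyond it for 422 and 318 (43.8% and 33.0%), and nearer the cerebellum or beyond it for 161 and 62 (16.7% and 6.44%). The same 2 regional groups enter both this placing and the choice of genes, so it is given as a description. Tested against these 3 regions, the hypothalamus gave 9995 genes (76.8%) and the cerebellum 10660 (81.9%) at an adjusted p below 0.05.

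Single genes show what these shares hold. Pmch had medians of 0.0673, 0.0694 and 0.739 CPM in the neocortex, hippocampus and amygdala, so its high level was that of the hypothalamus. Sst had medians of 182, 195 and 261 CPM, above the 139 CPM of the hypothalamus, so that the cerebellum stood out as low. Meis2, listed as a hypothalamic factor, had 169 CPM in the neocortex against 20.7 CPM in the hypothalamus. On the cerebellar side, Cbln3 had medians of 0.96, 1.81 and 1.44 CPM in the 3 regions, whereas Slc17a7 had 1304, 1286 and 1207 CPM, above the 528 CPM of the cerebellum, so that the hypothalamus stood out as low. Neurod2 (210.0 CPM in the hippocampus, 169.8 in the cerebellum and 2.37 in the hypothalamus) and Itpka (271, 107 and 6.57 CPM) were of the same kind. One primiparous hippocampus library had 54.3 CPM of Gabra6 and 115 CPM of Cbln3, against at most 1.77 and 3.96 CPM in the other 14. Medians are given for single genes for this reason, while the placing above used regional means.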

How the data were processed

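RNA-seq libraries (poly(A) selection, NEBNext Ultra kit, single-end reads) were made by the authors, 1 for each region of each animal. The authors aligned reads to mm10 with HISAT2 and deposited counts of reads with a single place in the genome, per gene, from featureCounts. The strand setting is not given in the sources used here, so how reads in overlapping genes were assigned is not known here. The deposited log2 table was checked (its values equal log2 of count over a size factor plus 4) and was not used for tests.

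Genes that reached 5 CPM in 8 or more of the 77 libraries were tested with edgeR 4.0.16 in R 4.3.3 (TMM factors, robust quasi-likelihood F-test, animal as block, Benjamini-Hochberg adjustment over 13016 genes). The 2-fold test was glmTreat. Errors beside log2 differences are SE. Levels are CPM of the library total. The pairing comes from the animal numbers in the labels; same-animal deviations correlated with a median r of 0.0141. The regions, gene lists and tests were chosen with earlier results of these data known. Genes named were the largest differences at 10 CPM or more, up to 4 members of each list on each side, the most abundant and opposite members and the most variable genes; further list members were named for their known roles after their values were seen. Each edgeR p-value of the main fit sets the regional difference against the variation left after the block for animal. Permutation p-values come from flipping the signs of paired differences or exchanging the states of animals. Alternatives were other scalings, filters and tools, no block, each state alone and leaving out each animal. Some list members are counted but not reported by name here.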

Additional observations from a re-analysis of the deposited data

Results flagged for a closer look

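In groups of 7 or 8 libraries, 8 values stood apart from the others of their group by Dixon's gap test, of 40 groups examined. Chance alone gives such a gap in about 5% of groups, but 7 of the 8 were in genes named because they varied most between animals, so the count cannot be set against that rate. In the cerebellum of primiparous females these were Ttr at 3334 CPM, Kl at 113 CPM and Prlr at 40.9 CPM, all in animal 421, and Prl at 90.1 CPM in animal 427. In the cerebellum of virgin females Prl stood apart at 2.46 CPM, and in the hypothalamus of virgin females Prl did at 119.8 CPM. Slc6a3 stood apart at 88.8 CPM in the hypothalamus of primiparous females. The share of reads in the mitochondrial genome stood apart at 4.72% in 1 hypothalamus library of a virgin female.

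Composition differed between the states in how the regions compared. The share of reads in the 10 most abundant genes was higher in the hypothalamus by 1.81 percentage points (SD 0.426) in 7 of 7 virgin females, and the difference was −0.388 (SD 0.88) in primiparous females, higher in 2 of 8 (exact permutation of the states, adjusted p = 0.0014). The share in the mitochondrial genome differed by 2.26 (SD 0.615) and −0.43 (SD 0.961) percentage points (adjusted p = 0.0014). The number of genes that hold 50% of the reads differed by −29.6 and 32.1 genes (adjusted p = 0.00839). Without the mitochondrial genome and genes absent from RefSeq, the first of these differences was −0.208 and −0.233 (adjusted p = 0.773).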

How the results depend on the processing

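Without the block for animal, 10586 genes differed and 2392 passed the 2-fold test, 2376 of the latter shared with the 2396 of the blocked fit. With no filter on low counts, 3621 of 23207 genes passed the 2-fold test, a larger table being tested. The other alternatives, in scaling, tool, filter and state, gave 9326 to 10510 genes that differed and 2216 to 2411 past the 2-fold test. Leaving out each animal in turn gave 10296 to 10494 and 2368 to 2415 genes. The regional difference in counted reads was −4553000 to −2473000, with p = 0.019 without animal 409 (exact permutation). The difference in genes detected was 490.2 to 530.5, and that in genes holding 50% of the reads was −1.786 to 9.357. The share of reads in the 10 most abundant genes differed by 0.5235 to 0.7967 percentage points, with p = 0.0323 without animal 413 and 0.0374 without animal 421 (exact permutation). It was −0.2214 without the mitochondrial genome and genes absent from RefSeq (exact permutation, p = 0.000549, against 0.0844 with all genes), an alternative chosen after seeing the data.

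Most genes named kept their sign under every alternative. The exceptions were 10 genes. COX1 had a log2 difference of −0.419 in primiparous and 0.52 in virgin females, −0.294 in animals with 3-digit numbers, −0.033 with no filter, −0.085 without the 4 animals with high cerebellar Ttr, and −0.054 to 0.083 when single animals were left out. In primiparous females Gabra4 was at −0.084 and Grin1 at 0.147, and Grin1 was at 0.086 in animals with 3-digit numbers. In virgin females Mbp was at 0.032 and Nr3c1 at 0.089. In animals with 4-digit numbers Nr3c1 was at 0.064 and Irx5 at 0.029. Without the 4 animals Enpp2 was at 0.14, Gh at −0.18 and Prl at −0.36. Kl was at −0.50 without the block and −0.17 with limma-voom. Calls were lost in 17 values of 7 genes and gained in 27 values of 8 genes, with the sign kept. Lost were Fabp7 (6 alternatives, 0.01 to 0.198), Itpr2 (4, 0.1 to 0.155), ND5 and ND6 (0.074 and 0.124 in primiparous females, 0.16 and 0.13 in animals with 3-digit numbers), Igf2r in primiparous females (−0.151), Insr in animals with 3-digit numbers (−0.122) and Mbp in those with 4-digit numbers (−0.035). Gained were Gabra4 (10 alternatives, 0.203 to 0.538), Nr3c1 (5, −0.213 to −0.104), Gh (3, 1.111 to 2.331), Prl (2, 1.1 and 1.745), Kl (2, 0.638 and 1.082), COX1 (2, 0.458 and 0.522), Grin1 (2, −0.241 and −0.238) and Enpp2 without the block (−0.8). Fits of 1 state and fits of 1 kind of animal number share most of their animals, so they are not separate alternatives. The cause of these changes was not tested.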
